A study of Mus musculus with 11 samples.

Results

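Transcript levels of 10 genes of the Hippo pathway and its TEAD output were followed in nEnd (naive extra-embryonic endoderm) of the mouse, cells kept as an in vitro counterpart of the primitive endoderm, or PrE, in the blastocyst. The genes were taken by name and not by their values: the coactivators Yap1 and Wwtr1, the angiomotins Amot and Amotl2, the transcription factors Tead1, Tead2 and Tead4, the kinase Lats2 and the target genes Ccn1 and Ccn2. They are 10 of the 48952 genes in the bulk RNA-seq table and of the 32285 genes in the single-cell matrices, and all 10 were detected in both. In GRCm38 (GENCODE M21), Yap1 at chr9:7931999-8004596, Wwtr1 at chr3:57455649-57575910, Amot at chrX:145446425-145505181, Amotl2 at chr9:102716672-102733418, Tead1 at chr7:112679318-112906807 are annotated as protein-coding genes. In the same annotation Tead2 at chr7:45215753-45233644, Tead4 at chr6:128224288-128300823, Lats2 at chr14:57689662-57758388, Ccn1 at chr3:145646976-145649981 and Ccn2 at chr10:24595442-24598683 are protein-coding too.

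The bulk libraries came from untreated nEnd in which OCT4 carries an mCherry tag (the OCT4-mCherry line), grown on mouse fibroblast feeders in RACL medium (Activin A, CHIR99021 and LIF) and sorted as DAPI-negative cells. Pdgfra+ cells carried surface PDGFRA without the reporter and stand for committed endoderm, DP cells carried both and are the OCT4-positive endoderm, and Oct4+ cells carried the reporter alone and are the de-differentiated cells that resemble the epiblast. Each sort had 3 libraries of 1 line. The single-cell libraries came from Oct4LOF nEnd (line EPUc), homozygous for an Oct4 (Pou5f1) allele that 4-hydroxytamoxifen (4OHT) deletes. PDGFRA-positive cells of that line were sorted, cultured with 4OHT (+4OHT) or without treatment (-4OHT) and then kept in RACL, with 1 library per condition.

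In the Hippo pathway the kinases STK3 and STK4 (MST) activate LATS1 and LATS2, and the LATS kinases phosphorylate YAP and its homologue TAZ (gene Wwtr1), which keeps them out of the nucleus. Unphosphorylated YAP and TAZ enter the nucleus and bind TEAD factors on DNA, which by themselves activate little. Angiomotins bind YAP and TAZ at junctions and on actin and help LATS act on them. In the preimplantation embryo, apical polarity of outer cells frees YAP to act with TEAD4 on the trophectoderm programme, while in inner cells angiomotin at junctions keeps LATS active. RNA levels show neither phosphorylation nor the place of YAP in the cell. Among the genes that YAP, TAZ and TEAD induce are Ccn1 (Cyr61) and Ccn2 (Ctgf), which encode secreted matricellular proteins, and Amotl2 and Lats2, which feed back on the pathway.

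TEAD factors bind the core motif GGAATG. In the 250 bases before the RefSeq transcription start (GRCm38.p6), the motif on either strand was present for 4 of the 7 followed genes with a window (Yap1, Wwtr1, Amotl2 and Ccn1, not Tead2, Amot or Lats2), for 6 of 15 genes of a YAP/TAZ target list and in 12.6% of all 32851 windows. A gene was counted if any of its windows held a match, whereas the 12.6% is a share of single windows. Of the genes with a window, Ccn1, Amotl2 and Lats2 are in both gene sets, and Lats2 had no match. A match of these letters is a description and not a proven site. Among the 6 target genes with a match, the windows of 4 whose transcripts were lower in Oct4+ cells are shown, chosen after their values and matches were seen. F3 and Foxf2, target genes that were lower there too, had windows without a match. The windows are written 5′ to 3′ on the gene's strand with the motif in capitals (CATTCC is the motif on the other strand), for Ccn1 at chr3:145649986-145650235 (minus strand), Amotl2 at chr9:102717554-102717803 (plus strand), Ankrd1 at chr19:36119845-36120094 (minus strand) and Crim1 at chr17:78199998-78200247 (plus strand).
Ccn1: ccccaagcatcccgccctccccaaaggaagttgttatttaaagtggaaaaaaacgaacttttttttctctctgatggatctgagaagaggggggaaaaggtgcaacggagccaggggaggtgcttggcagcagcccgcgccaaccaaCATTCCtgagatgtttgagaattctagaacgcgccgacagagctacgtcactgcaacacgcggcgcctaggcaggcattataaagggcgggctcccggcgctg
Amotl2: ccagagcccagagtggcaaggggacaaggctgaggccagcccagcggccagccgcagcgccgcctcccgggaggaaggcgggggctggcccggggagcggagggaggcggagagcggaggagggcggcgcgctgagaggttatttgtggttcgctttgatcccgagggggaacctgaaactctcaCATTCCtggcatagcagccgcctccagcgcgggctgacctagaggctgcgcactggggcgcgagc
Ankrd1: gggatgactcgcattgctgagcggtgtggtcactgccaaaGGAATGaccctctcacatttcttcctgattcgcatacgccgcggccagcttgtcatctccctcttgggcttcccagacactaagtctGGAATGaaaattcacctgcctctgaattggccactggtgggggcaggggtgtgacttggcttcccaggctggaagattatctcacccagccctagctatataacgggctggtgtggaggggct
Crim1: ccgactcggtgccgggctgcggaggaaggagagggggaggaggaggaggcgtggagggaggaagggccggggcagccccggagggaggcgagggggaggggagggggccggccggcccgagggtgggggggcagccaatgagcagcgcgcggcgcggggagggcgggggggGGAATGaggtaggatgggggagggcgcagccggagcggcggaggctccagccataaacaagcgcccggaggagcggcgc
The single match began 103 bases before the RefSeq start in Ccn1, 65 in Amotl2 and 79 in Crim1, and Ankrd1 held matches at 210 and 123 bases. The windows of Amotl2 and Ankrd1 lie inside these genes as GENCODE annotates them, since the RefSeq starts used are downstream of the GENCODE starts.

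Bulk libraries held 8019631 to 11642571 counted reads, and levels are given as CPM, each library's counts divided by its TMM-scaled total. The labels were checked on the sorted markers. Pou5f1 was at 8.37 to 26.4 CPM in Pdgfra+, 132 to 310.3 in DP and 861 to 1137 in Oct4+ libraries, and Pdgfra at 535 to 967, 420.1 to 718 and 4.96 to 12.1 CPM. Summed levels of 13 fibroblast (feeder) markers were 112 to 182 CPM in Pdgfra+, 36.6 to 80.3 in DP and 34.2 to 220.3 in Oct4+ libraries. Oct4+ replicate 1 stood apart with Col1a1 at 68.3 CPM, against at most 5.23 in every other library. Summed levels of 11 epiblast markers were 176 to 263 CPM in Pdgfra+, 676 to 1069 in DP and 3956 to 5324 in Oct4+ libraries, and moved with every difference between the sorts given below; their part in these was not tested. The bulk levels average over the cells of a sort, so that fewer cells with a transcript and less transcript per cell cannot be told apart. The 3 comparisons share libraries with one another, and adjusted p-values below are Benjamini-Hochberg values over all 14185 genes tested, from edgeR's quasi-likelihood test.

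Between DP and Pdgfra+ cells, which differ in OCT4, Ccn2 was the one called gene of the 10, lower in DP. It alone passed the threshold of an adjusted p below 0.05, where 6.87% of all genes tested did (4.62% higher and 2.26% lower in DP). Ccn2 was at 790.4, 576 and 1174 CPM in Pdgfra+ replicates 1 to 3 and at 267, 73.9 and 138 CPM in DP. Every DP library lay below every Pdgfra+ library. Ccn2 fell by 2.41 ± 0.43 on the log2 scale (SE, n = 3 per group, adjusted p = 0.0183 by edgeR), a 5.31-fold lower level. Without Pdgfra+ replicate 3 or without DP replicate 3 the adjusted p was 0.070 and 0.068 by edgeR, and the call was lost. In these 2 fits only 0.412% and 0.896% of all genes were called. The log2 difference of Ccn2 was -3.00 to -2.07 over all fits without 1 library. Pdgfra+ replicate 3, the highest in Ccn2, was also the highest in the fibroblast-list gene Col5a1 (116 CPM, against 15.8 to 39.8 in the other 8 libraries), while its Col1a1 was at 2.61 and its Dcn at 0.104 CPM. The part of these markers in the Ccn2 level was not tested.

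Ccn1 moved the same way with a smaller change. It was at 496, 609 and 495 CPM in Pdgfra+ and at 339, 304 and 211 CPM in DP libraries. The groups did not overlap, but the difference of -0.90 ± 0.35 missed the threshold (adjusted p = 0.145 by edgeR). Amot had the opposite sign, at 209.7, 311 and 153 CPM in Pdgfra+ and 344, 628 and 428 CPM in DP. All DP libraries lay above all Pdgfra+ libraries, and the log2 difference of 1.05 ± 0.48 missed the threshold as well (adjusted p = 0.198).

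Same-numbered DP and Pdgfra+ libraries deviated from their group means together, but no label says that a replicate number marks a shared sort or day. With the replicate number as a block in the fit of all 9 libraries, Amot passed (adjusted p = 0.045, higher in DP) beside Ccn2, so that 2 of 10 genes were called where 8.21% of all genes were. With the block in the fit of the 6 DP and Pdgfra+ libraries, 4 of 10 were called, namely Amot (0.018), Tead1 (0.034), Ccn1 (0.019) and Ccn2, against 20.2% of all genes. The difference in Amot was positive in all 3 numbered pairs, and those in Ccn1 and Ccn2 were negative in all 3. Since the groups did not overlap in these genes, any pairing of the libraries gives these signs.

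The other 7 genes gave no call between DP and Pdgfra+ without the block. Yap1 was nearly level, at 269, 283 and 286 CPM in Pdgfra+ and 285, 265 and 259.8 CPM in DP, a log2 difference of -0.05 ± 0.12 (adjusted p = 0.814 by edgeR). Differences in Wwtr1 (0.20), Tead4 (0.18), Tead2 (-0.17), Amotl2 (-0.31), Tead1 (-0.54) and Lats2 (-0.55) had adjusted p-values from 0.0816 to 0.664. Tead1 was lower in every DP library, at 362, 361 and 297 CPM against 467, 479 and 535 CPM in Pdgfra+. Of the 10 genes, 7 did not overlap between the groups, where 34.2% of all genes did not.

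**Figure D1:**
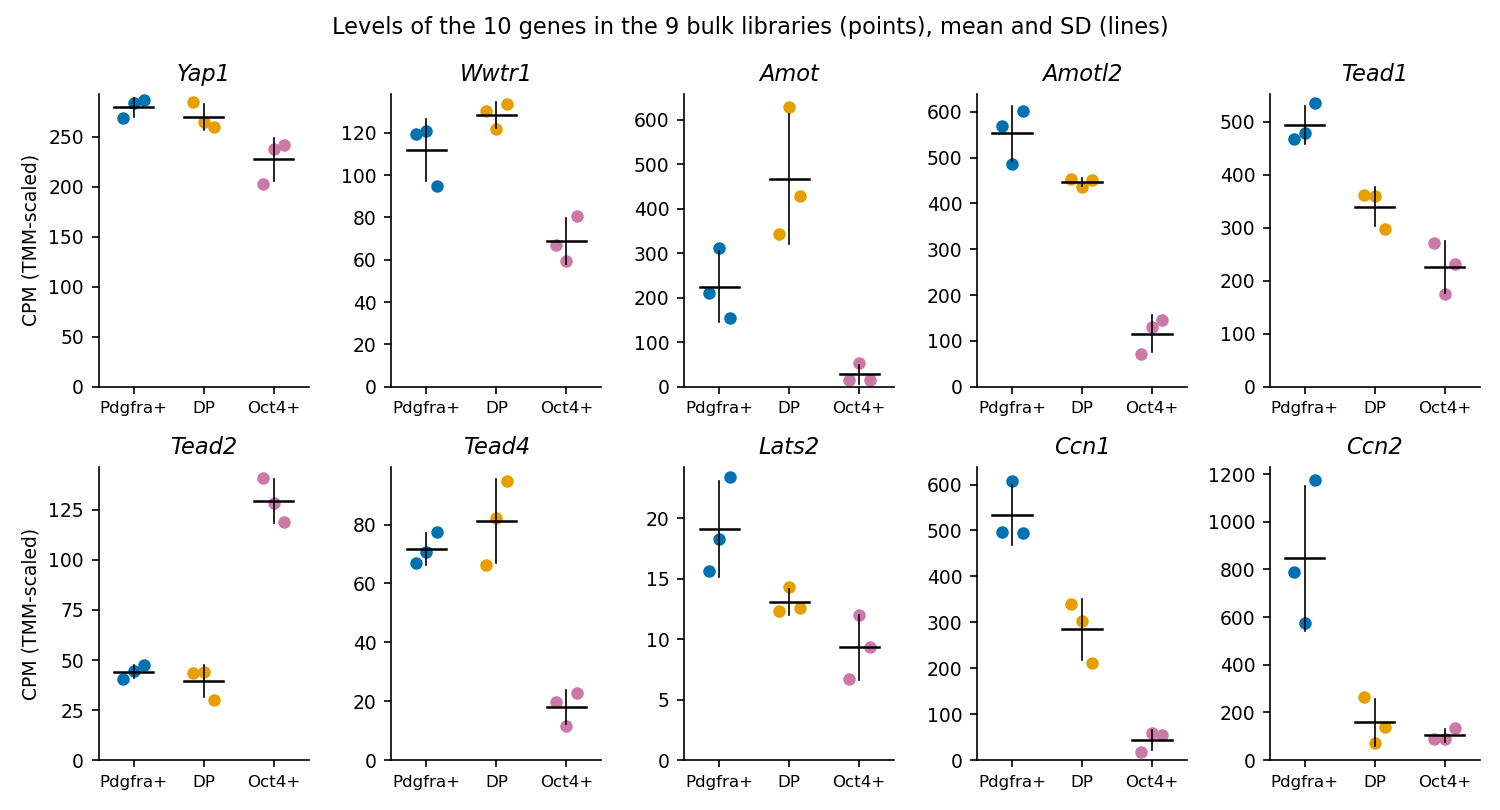
Level of each of the 10 genes in the 9 bulk libraries, in TMM-scaled CPM on linear axes from 0, with 1 point per library, a horizontal line at the group mean and a vertical line for its SD (n = 3). Yap1 is nearly level, Tead2 is highest in Oct4+ cells, and Ccn2 is at 576 to 1174 CPM in Pdgfra+ and at 267 CPM or below in the other libraries.

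Oct4+ cells differed from both endoderm sorts in most of the 10 genes. Against DP, 7 of 10 were called (1 higher and 6 lower), where 56.2% of all genes were (27.9% higher and 28.3% lower). Against Pdgfra+, all 10 were called (1 higher and 9 lower), where 63.2% were, 31.8% higher and 31.5% lower. With a log2 difference beyond 1.5 asked for as well, 1, 5 and 6 of 10 were called in the comparisons of DP with Pdgfra+, Oct4+ with DP and Oct4+ with Pdgfra+, where 3.89%, 27.7% and 32.0% of all genes were. Libraries did not overlap for 9 of 10 against DP and 10 of 10 against Pdgfra+, where they did not for 62.6% and 69.3% of all genes. The median log2 difference of the 10 genes was -0.76 and -1.56, beside 0.04 and 0.01 over all genes tested. Share and direction are read beside these backgrounds, since more than 1 gene in every 2 differed between the same libraries.

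Both angiomotins fell in Oct4+ cells. Amot was at 15.2, 53.1 and 14.2 CPM in Oct4+ libraries, below every library of DP and Pdgfra+. It fell by 4.09 ± 0.54 on the log2 scale against DP (17.0-fold, adjusted p = 0.000159 by edgeR) and by 3.03 ± 0.51 against Pdgfra+ (8.17-fold, 0.000575). Amotl2 was at 569.8, 486 and 603 CPM in Pdgfra+, at 453, 436 and 451 in DP and at 70.3, 131 and 146 CPM in Oct4+ libraries. It fell by 1.95 ± 0.24 against DP and by 2.26 ± 0.24 against Pdgfra+ (adjusted p = 0.0001 and 3.26e-05). The third family member, Amotl1, fell too, from 72.3 to 174 CPM in Pdgfra+ and 32.0 to 68.6 in DP to 16.0 to 22.0 CPM in Oct4+ libraries (adjusted p = 0.000163 and 0.00507).

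Of the coactivators, Wwtr1 fell and Yap1 stood at the threshold. Yap1 was at 202, 238 and 242 CPM in Oct4+ libraries, below all endoderm libraries, but its difference from DP was -0.25 ± 0.12 (adjusted p = 0.0915 by edgeR) and that from Pdgfra+ -0.30 ± 0.12 (0.0437). The second of these lost its call in 11 of 16 alternative fits, where its adjusted p reached 0.161. Wwtr1, which encodes TAZ, was at 119, 121 and 94.8 CPM in Pdgfra+, at 130.3, 122 and 134 in DP and at 66.7, 59.4 and 80.6 CPM in Oct4+ libraries. It fell by 0.90 ± 0.15 against DP and by 0.70 ± 0.15 against Pdgfra+ (adjusted p = 0.000677 and 0.00238).

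The TEAD factors moved in opposite directions. Tead4, the TEAD of the trophectoderm programme, was at 66.8, 70.7 and 77.5 CPM in Pdgfra+, at 66.2, 82.4 and 94.6 in DP and at 19.8, 11.4 and 22.8 CPM in Oct4+ libraries. It fell by 2.17 ± 0.24 against DP and by 1.99 ± 0.24 against Pdgfra+ (adjusted p = 6.25e-05 and 7.47e-05 by edgeR). Tead1 fell less, to 271, 175 and 232 CPM, by 0.59 ± 0.17 against DP (0.0132) and by 1.13 ± 0.17 against Pdgfra+ (0.000272). Tead2 was the one gene of the 10 that rose. It was at 40.8, 44.3 and 47.6 CPM in Pdgfra+, at 43.6, 44.3 and 30.1 in DP and at 141, 128 and 119 CPM in Oct4+ libraries, without overlap, and was 3.29-fold higher than in DP and 2.92-fold higher than in Pdgfra+ (adjusted p = 2.79e-05 and 3.55e-05). Tead3, at differences of 0.14 ± 0.47 and -0.40 ± 0.46, gave no call.

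Per kilobase of annotated exon the order of the followed TEAD genes turned over. In Pdgfra+ cells Tead1 stood at 36.4 ± 2.7, Tead4 at 19.9 ± 1.5 and Tead2 at 9.24 ± 0.71 CPM per kb (mean ± SD, n = 3). In DP cells Tead1 (25.0 ± 2.7) and Tead4 (22.5 ± 4.0) overlapped, above Tead2 at 8.21 ± 1.67. In Oct4+ cells Tead2 came first at 27.0 ± 2.3, above Tead1 at 16.7 ± 3.6 and Tead4 at 5.01 ± 1.64, with no overlap between these 3 in single libraries. Yap1 exceeded Wwtr1 in each sort on the same scale, by 30.2 to 23.4, 29.1 to 26.9 and 24.6 to 14.4 CPM per kb, with no overlap of their libraries within a sort. Lengths are unions of all annotated exons, so that a long unused isoform lowers a gene's value.

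Lats2, the kinase that is also a target, had the lowest level of the 10 genes. It was at 15.6, 18.2 and 23.4 CPM in Pdgfra+, at 12.3, 14.3 and 12.5 in DP and at 6.67, 12.0 and 9.31 CPM in Oct4+ libraries. It fell by 1.03 ± 0.26 against Pdgfra+ (adjusted p = 0.006 by edgeR), and the difference from DP of -0.49 ± 0.26 was not called (0.139). Ccn1 fell to 18.8, 58.3 and 55.1 CPM in Oct4+ libraries, by 2.70 ± 0.37 against DP and by 3.60 ± 0.39 against Pdgfra+ (adjusted p = 0.000222 and 3.5e-05). Ccn2 was at 87.7, 89.7 and 133 CPM in Oct4+ libraries, which overlapped the DP libraries. It was 8.18-fold lower than in Pdgfra+ (0.000234), and its difference from DP was -0.62 ± 0.42 (0.226). In 2 of 16 alternatives the Ccn2 difference from DP was called as well (adjusted p from 0.0370 to 0.887). Oct4+ replicate 1, the library with the highest fibroblast markers, was the lowest of its group in Amotl2, Ccn1 and Ccn2, and without it the same 7 genes were called against DP, while against Pdgfra+ Yap1 alone lost its call (adjusted p = 0.110).

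**Figure D2:**
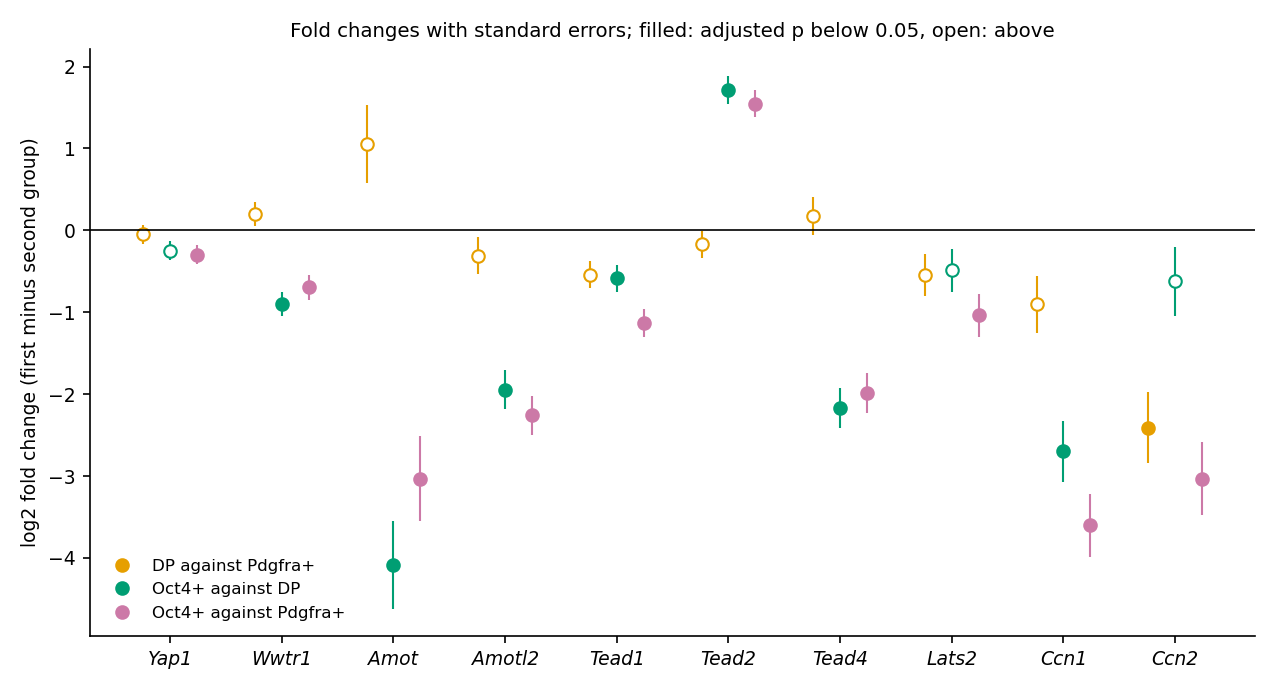
Log2 fold change of each of the 10 genes in the 3 bulk comparisons, first minus second group, with vertical lines for the standard error, filled points for an adjusted p below 0.05 and open points for the rest. Values below 0 are lower in the first group; Tead2 is the one gene above 0 in both Oct4+ comparisons, at 1.72 and 1.55.

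A list of 65 genes of the pathway, from general knowledge, set these genes in context, and 62 of them could be tested. Between DP and Pdgfra+ 5 of 62 were called, all of them YAP/TAZ target genes (5 of 21 in that group, beside 6.87% of all genes). Ankrd1, a nuclear ankyrin-repeat protein of strained muscle, fell by 2.42 ± 0.49, Ccdc80, a matrix protein, by 2.21 ± 0.49, and F3, tissue factor, by 1.72 ± 0.35, beside Ccn2 (adjusted p from 0.0183 to 0.0326 by edgeR). Foxf2, a forkhead transcription factor, was the exception and was 2.67-fold higher in DP (0.042). None of the 8 core kinase cassette genes, 14 upstream regulators, 3 angiomotins, 7 TEAD and Vgll genes or 10 apicobasal polarity genes passed the threshold in this comparison. With DESeq2 10 of 62 were called (13.2% of all genes). With the replicate block 7 of 62 were called in 9 libraries (8.21%) and 22 of 62 in 6 libraries (20.2%). Without 1 library 0 to 10 of 62 were called, where 0.412% to 9.30% of all genes were. The count was 0 without DP replicate 3 (0.896% of all genes) or without Pdgfra+ replicate 3 (0.412%).

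In Oct4+ cells 37 of 62 were called against DP (8 higher and 29 lower) and 44 of 62 against Pdgfra+ (8 higher and 36 lower), 59.7% and 71.0% of the list beside 56.2% and 63.2% of all genes tested. In the core kinase cassette, 5 of 8 and 7 of 8 were called. Lats1 fell by 1.04 ± 0.16 against DP and by 1.41 ± 0.16 against Pdgfra+, and Stk3 by 0.82 ± 0.18 against DP, while Nf2 (Merlin) was higher by 0.51 ± 0.17 and 0.53 ± 0.17 and Mob1b by 0.33 ± 0.13 against Pdgfra+. Among upstream regulators 7 of 14 and 8 of 14 were called, shares that lie below those of all genes. Rassf1 fell by 2.07 ± 0.20 against DP, the phosphatase gene Ptpn14 by 1.94 ± 0.29 and the LIM-domain gene Limd1 by 1.52 ± 0.17, and Wtip was higher by 0.67 ± 0.18. All of these values are log2 differences past the threshold by edgeR.

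Of 10 apicobasal polarity genes, 6 were called in each of the comparisons with Oct4+ cells, a share near the 56.2% and 63.2% of all genes. Patj of the Crumbs complex fell from 184 to 214 CPM in DP to 15.6 to 23.9 CPM in Oct4+ libraries, by 3.39 ± 0.18 on the log2 scale (adjusted p = 2.05e-06 by edgeR). Crb3 fell by 2.77 ± 0.46 and Pard6b by 2.11 ± 0.18. Llgl1 (0.54 ± 0.14) and Scrib (0.33 ± 0.11) of the basolateral Scribble module were higher than in DP, but their differences from Pdgfra+ of 0.23 ± 0.13 and -0.05 ± 0.11 were not called.

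YAP/TAZ target genes did not move as one. Against DP 14 of 21 were called (3 higher and 11 lower) and against Pdgfra+ 18 of 21 (5 higher and 13 lower), beside 56.2% and 63.2% of all genes. F3 was at 441 to 825 CPM in Pdgfra+, 97.1 to 268 in DP and 7.36 to 9.98 CPM in Oct4+ libraries, and fell by 6.15 ± 0.43 between the outer sorts. Crim1, a transmembrane antagonist of BMP, fell from 623 to 1203 CPM in Pdgfra+ and 162 to 549 in DP to 9.42 to 18.7 CPM in Oct4+ libraries. Foxf2 fell by 5.92 ± 0.46 against DP. Nuak2 rose from 0.654 to 0.748 CPM in DP to 12.7 to 17.8 CPM in Oct4+ libraries (4.34 ± 0.34), and Igfbp3 (2.93 ± 0.36) and the stress gene Gadd45a (1.56 ± 0.23) rose with it. Ankrd1 and Foxf2 were at 1.94 CPM or below in Oct4+ cells, where their fold changes rest on few reads. The size of the rise in Nuak2 likewise rests on few reads in DP, at 0.748 CPM or below.

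**Figure D3:**
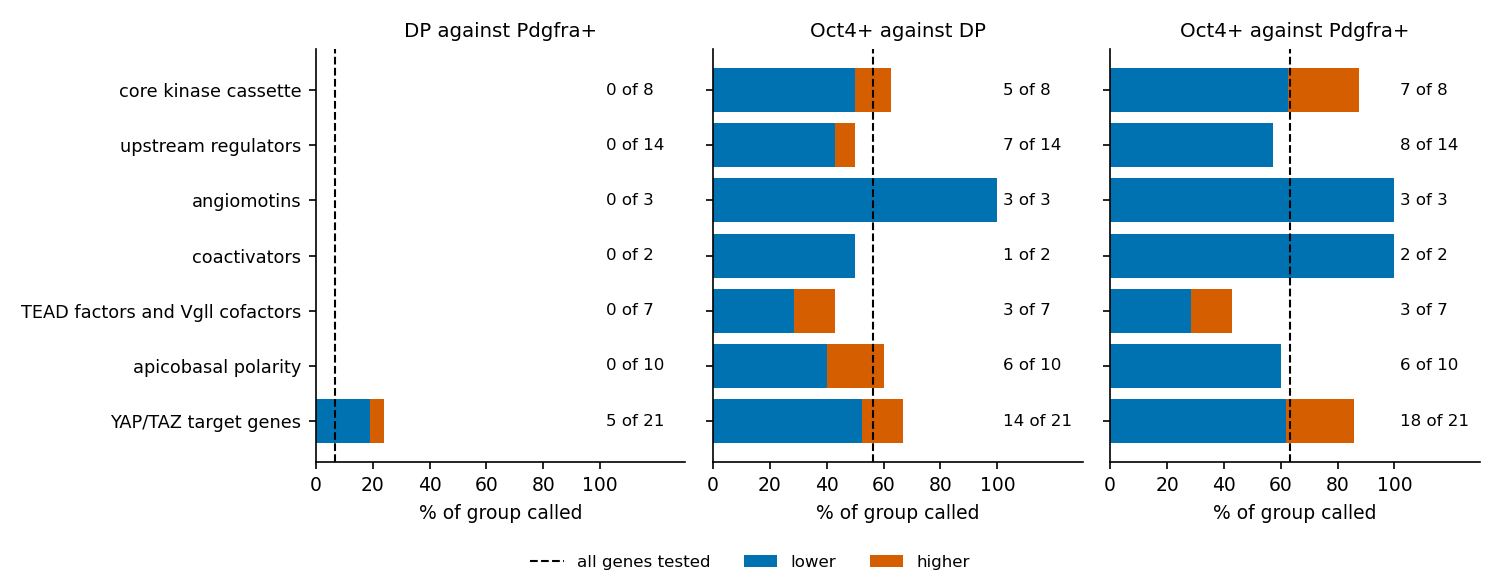
Share of the tested genes of each pathway group called in each bulk comparison (adjusted p below 0.05), with lower in blue, higher in orange, counts at the right and a dashed line at the share of all genes tested. Between DP and Pdgfra+ the 5 calls are all target genes; in the Oct4+ comparisons all 3 angiomotins are lower.

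The genes most like the followed genes over the 9 bulk libraries, by Pearson r of log2 CPM among 9603 other genes with a mean of at least 10 CPM, were found as a description. The 9 points share 3 sorts, so that high values are common, and the 99th percentile over all candidates was 0.894 to 0.975 for the 10 genes. The nearest were Lratd2 (0.996) and Tom1l1 (0.991) for Amot, Tmem128 (0.996) and Myl6 (0.995) for Amotl2, and Chmp2b (0.993) and Scpep1 (0.989) for Wwtr1. Ensa (0.993) and Ormdl3 (0.986) were nearest to Ccn2, and Eogt (0.992) and Tceal9 (0.989) to Ccn1. For the TEAD genes they were Prdm2 and Mib1 (both 0.987) for Tead1, Hnrnpa0 (0.988) and Rfx2 (0.987) for Tead2, and Pitpna (0.992) and Fkbp15 (0.990) for Tead4.

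The single-cell libraries held 6896 barcodes without and 7283 with 4OHT, of which 5216 and 6201 cells were used, and 21 barcode sequences occurred in both. The median cell had 17457.5 UMIs without and 12330 with 4OHT. Cells were clustered without any of the 65 pathway genes, into 15 clusters named from markers. Levels are UMIs summed over cells and scaled to CPM. With 1 library per condition there is no test, and the 95% intervals given cover counting error only. The deleted gene, Pou5f1, was at 40.4 CPM without and 2.55 CPM with 4OHT. Endoderm-like cells were 26.0% of the -4OHT cells (1356) and 96.5% of the +4OHT cells (5981). Cells named epiblast-like were 70.2% (3661) and 0 of 6201, which by counting error alone allows a share of up to 0.0484%. A cluster named two-cell-like, which also carried the 11 epiblast markers, held 150 and 5 cells (0.0806% of the +4OHT cells). Fibroblast-like cells formed a cluster of 19 and 29 cells.

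Within the -4OHT library epiblast-like cells were set against endoderm-like cells. Of the 10 genes 9 reached 20 CPM in a class, of which 1 was over 1.5-fold higher and 6 were over 1.5-fold lower in epiblast-like cells, where 50.4% of 6700 genes were past that fold (20.5% higher and 29.9% lower). Amot was at 3.49 CPM in epiblast-like and 95.05 CPM in endoderm-like cells, a ratio of 0.0368 (0.0321 to 0.0419). Ccn1 was at 2.78 and 87.1 CPM (ratio 0.0320, 0.0275 to 0.0370), Amotl2 at 15.4 and 88.4 (0.174), Ccn2 at 12.4 and 95.1 (0.130) and Tead4 at 9.73 and 46.1 (0.211). Tead2 was higher, at 59.7 against 39.0 CPM (1.53, 1.42 to 1.65). Yap1 (0.761) and Tead1 (0.748) were inside 1.5-fold, and Lats2 was under 20 CPM in both. Pdgfra, a transcript of the endoderm, gave a ratio of 0.0103, below that of every followed gene. The endoderm-like class was a mixture here, since 716 of its 1356 cells belonged to 1 cluster, described next. Amot was at 147 CPM in that cluster and at 11.02 CPM in the other endoderm-like cells, both above the epiblast-like level. Ccn1 was at 31.9 and 176 CPM, also both above it. Ccn2 was at 8.85 CPM in the cluster, below the epiblast-like 12.4 CPM, and at 234 CPM in the others.

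The endoderm-like cells themselves were not uniform, and Amot and the targets Ccn1 and Ccn2 were highest in different clusters. Across the 9 endoderm-like clusters, both libraries together, Ccn2 ran from 9.07 to 751 CPM, Amot from 4.54 to 147 and Ccn1 from 32.3 to 582, whereas Yap1 ran from 40.8 to 70.0 and Tead2 from 22.0 to 41.8 CPM. One cluster held the maxima of Amot, Tead2 and Tead4 and the minima of Yap1, Amotl2, Tead1, Lats2, Ccn1 and Ccn2. It was led by Amn and Cubn, the receptor pair for protein uptake in the visceral endoderm, and is number 9 in the plot of levels by cluster. It had 716 cells in the -4OHT and 2 in the +4OHT library and 11 of 13 endoderm-like markers.

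In the -4OHT library this Amn/Cubn cluster was 13.7% of the cells and held 83.9% (82.3 to 85.4) of the Amot UMIs and 41.9% of the Tead4 UMIs, but 3.74% (3.10 to 4.47) of the Ccn2 UMIs. Amot was at 147 CPM in it and at 11.02 CPM in the other endoderm-like cells, 13.4 times as high (10.8 to 16.7). Ccn2 was at 8.85 against 234 CPM (ratio 0.0378) and Ccn1 at 31.9 against 176 CPM (0.182). Tead1 (0.466), Lats2 (0.488) and Amotl2 (0.636) were lower too, Tead4 (1.71) and Wwtr1 (1.76) were higher, and Yap1 was at 0.864. Of the 10 genes 8 were past 1.5-fold, where 32.9% of 6602 genes were (11.1% higher and 21.8% lower). Pou5f1 was at 20.6 CPM in it and at 3.34 CPM in the other endoderm-like cells. In the bulk libraries Amn and Cubn were 4.05 and 3.75-fold higher in DP than in Pdgfra+ cells (adjusted p = 0.0288 and 0.0463 by edgeR), the 2 called genes of 13 on the endoderm marker list, whose median log2 difference was -0.29. Amot there missed the threshold without the block, as given above. Since the cells were grouped by expression, the values between clusters are a description.

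At the other end stood 3 clusters mainly of +4OHT cells, which held the highest Ccn1. The one led by Ccn2, F3 and Tnfrsf12a (number 10) had Ccn2 at 700.4 and Ccn1 at 319 CPM, and that led by Clu, Serpinb9b and Acta2 (number 11) had Ccn2 at 751 and Ccn1 at 582 CPM. The cluster led by the contractile genes Tagln and Acta2 (number 6) had Ccn1 at 366 and Ccn2 at 411 CPM. Of the endoderm-like clusters these 3 were also the highest in Amotl2, at 157 to 189 CPM, and in Lats2, at 35.7 to 38.4 CPM. Fibroblast-like cells of the +4OHT library had Ccn2 at 407 CPM, 1.04 times the endoderm-like level (0.934 to 1.15), and held 1.12% of its UMIs. Of 9 measured genes 2 were over 1.5-fold higher in them (Wwtr1 and Lats2) and 3 lower, where 47.7% of 7273 genes were past it (15.7% higher and 32.0% lower).

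**Figure D4:**
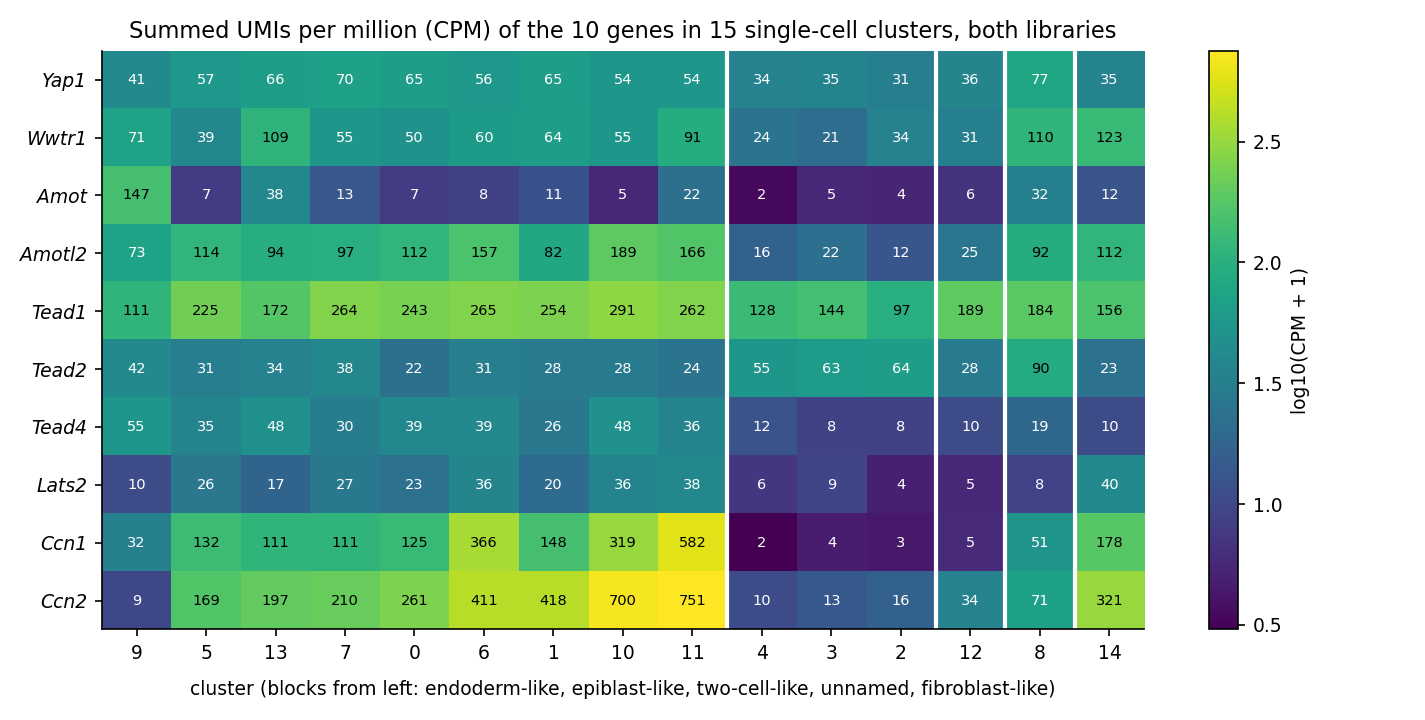
Summed UMIs of each of the 10 genes (rows) in the 15 single-cell clusters (columns), both libraries together, as CPM, with the value in each field and colour on a log10(CPM + 1) scale; within a class the columns run from low to high Ccn2, and white lines separate endoderm-like, epiblast-like, two-cell-like, unnamed and fibroblast-like clusters. Cluster 9 has the highest Amot, 147 CPM, and the lowest Ccn2 of the endoderm-like clusters, 9.07 CPM.

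Between the libraries, the endoderm-like class had Ccn2 at 95.1 CPM without and 392 CPM with 4OHT, a ratio of 4.12 (3.93 to 4.31). Ccn1 was 2.80 times as high (2.67 to 2.94), Lats2 2.13 times and Tead1 1.57 times, while Amot was at 95.05 and 11.8 CPM, a ratio of 0.124 (0.115 to 0.134). Of the 10 genes 4 were over 1.5-fold higher and 1 was lower, where 29.8% of 6800 genes were past that fold (21.3% higher and 8.49% lower). Yap1 (1.41), Amotl2 (1.480), Wwtr1 (1.05), Tead4 (0.823) and Tead2 (0.739) were inside it. Of the wider list, 23 of 48 measured genes were higher and 2, Amot and Wwc1, were lower, and among target genes 9 of 13 were higher and none lower.

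The 2 libraries drew their endoderm-like cells from different clusters, those without 4OHT mostly from clusters 9 and 5 and those with 4OHT from clusters 0, 1, 5, 6, 7, 10, 11 and 13. Without cluster 9, the ratio of Ccn2 was 1.67 (1.60 to 1.75), that of Ccn1 1.39, of Lats2 1.46, of Tead1 1.05 and of Amot 1.07 (0.858 to 1.34), and 2 of 9 genes were past 1.5-fold, where 9.63% of 6658 genes were. These were Ccn2, which stayed past it, and Wwtr1, at 1.05 in the whole class and 1.55 here. In cluster 5, led by Car4 and Pitx1 and the endoderm-like cluster best filled by both libraries (395 cells without and 834 with 4OHT), none of 9 measured genes was past 1.5-fold, where 5.31% of 6511 genes were (3.32% higher and 2.00% lower). There Ccn2 was at 140 and 179.7 CPM (1.29, 1.18 to 1.40), Ccn1 at 136 and 130.5 (0.962, 0.881 to 1.05), Tead1 at 233 and 223 (0.957) and Yap1 at 46.5 and 60.8 CPM (1.31). Of the wider list 44 genes were measured in this cluster, of which 0 were over 1.5-fold higher and 1 was lower. Among its 13 measured target genes 0 were higher and 1 was lower. Pou5f1 was at 3.67 CPM without and 0.433 CPM with 4OHT in the same cluster, on 19 and 6 UMIs (ratio 0.118, 0.0386 to 0.308). Its level there was thus low without 4OHT already, beside 20.6 CPM in cluster 9 and 48.3 CPM in epiblast-like cells of that library.

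In the other endoderm-like clusters with at least 30 cells of each library, 1 of 9 genes was past 1.5-fold in cluster 0 (Wwtr1), cluster 6 (Lats2) and cluster 10 (Wwtr1), each on 10 to 24 UMIs in the -4OHT library, where 16.1%, 15.1% and 12.5% of all genes were past it. Cluster 11, with 51 and 701 cells, differed. In it 5 of 10 genes were over 1.5-fold higher with 4OHT, where 19.1% of 7058 genes were past that fold in either direction. The 5 included Ccn2 at 2.05 (1.79 to 2.35), Ccn1 at 2.02 (1.73 to 2.36) and Amotl2 at 1.97 (1.49 to 2.65). The others, Tead4 at 2.16 (1.16 to 4.55) and Lats2 at 2.11 (1.17 to 4.27), rested on 10 and 11 UMIs in the -4OHT library. Over all cells, without regard to class, all 10 genes were past 1.5-fold, 8 higher and 2 lower (Amot and Tead2), where 56.0% of 7106 genes were (36.7% higher and 19.2% lower), with Ccn1 10.7 and Ccn2 11.9 times as high with 4OHT. Those values include the difference in the share of epiblast-like cells. Set directly against the epiblast-like cells of the -4OHT library, endoderm-like +4OHT cells were over 1.5-fold higher in 8 of 9 measured genes and lower in 1, Tead2 (0.483), where 64.2% of 7218 genes were past that fold (40.5% higher and 23.7% lower).

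**Figure D5:**
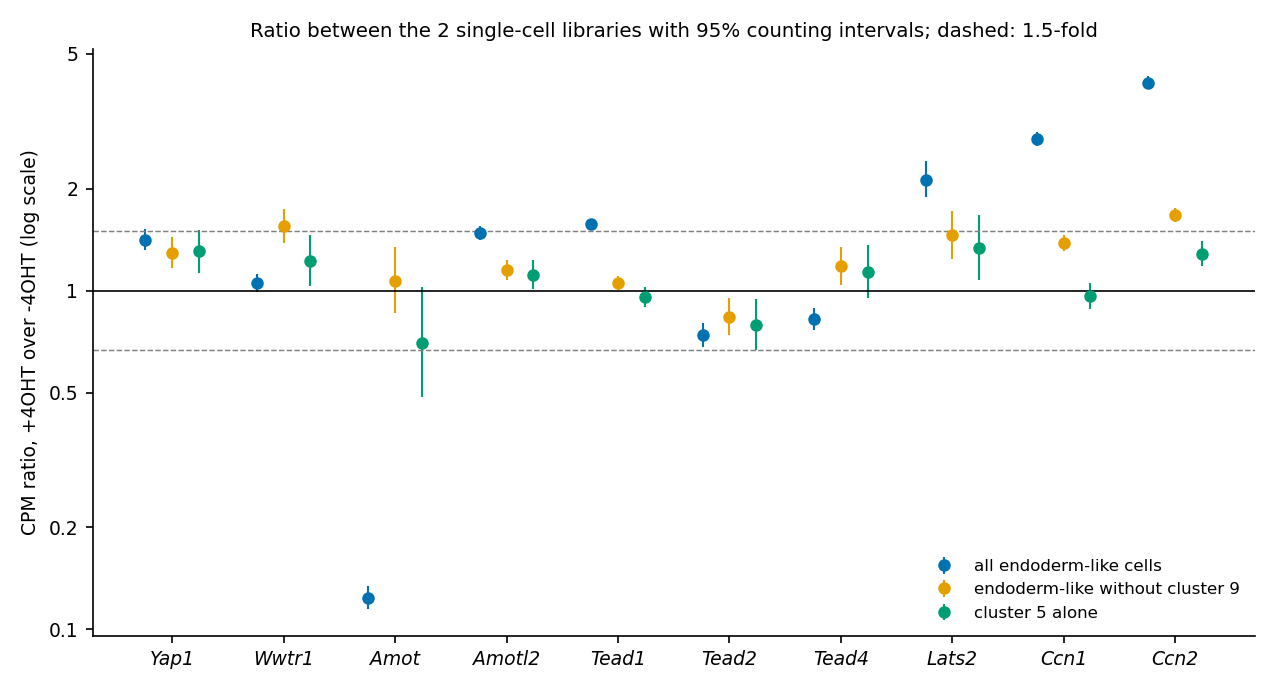
Ratio of CPM with over without 4OHT for each of the 10 genes on a log axis, in all endoderm-like cells, in those without cluster 9 and in cluster 5 alone, with 95% counting intervals and dashed lines at 1.5-fold. The Ccn2 ratio is 4.12, 1.67 and 1.29 in these sets, and the Amot ratio is 0.124, 1.07 and 0.700.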

How the data were processed

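Bulk RNA-seq of 9 sorted nEnd libraries (NEBNext Ultra II Directional kit, single-end) was deposited by the authors as raw read counts per gene. No aligner, counter or annotation for them is given in the sources used here: overlapping and antisense genes may share reads. The authors deposited the single-cell data as raw UMI counts per gene and barcode, made with Cell Ranger 6.1.2 per the file headers, on mm10 per the submitters' processing notes.

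For the bulk tests edgeR 4.0.16 was run under R 4.3.3. Its filterByExpr kept 14185 of 48952 genes, and all 10 members of the gene list passed. Libraries were scaled by TMM, 1 model with group as its term was fitted to all 9 libraries, and groups were compared by the quasi-likelihood test with calls at an adjusted p below 0.05. The study names DESeq2, which served as an alternative (version 1.42.0). The 35 blank lines at the end of the table were left out. All 9 replicate pairs differed beyond sampling noise (chi-square per degree of freedom 16.7 to 36.6). The labels do not say how the 3 replicates were separated, and p-values measure the spread between these samples. Same-numbered libraries deviated together between DP and Pdgfra+ (r = 0.271, 0.477 and 0.321 across genes). This pairing is read from the data alone, and no label states it. No such pairing held for Oct4+ (r = -0.0728 to 0.152).

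Cells were kept with log genes detected no more than 3 median absolute deviations below the library median. Their mitochondrial share was no more than 3 such deviations above its median, and genes detected had no upper limit. The 5% highest scrublet scores per library were removed, since the automatic threshold marked 189 cells without but 1 cell with 4OHT. Cells were clustered jointly with scanpy 1.11.5 on 2000 variable genes, 20 principal components and Leiden resolution 1. A gene counted toward a fold if it reached 20 CPM in a group compared. Exon lengths came from GENCODE M21 (GRCm38). Only the main edgeR fit was tried on simulated counts, for DP against Pdgfra+ with independent libraries, and the outcome is not reported here. Pathway genes named are up to 3 per group, direction and comparison with the largest called change, with F3 in DP against Pdgfra+ and the uncalled values added after the values were seen. The members, the lists and the design were chosen with earlier results of these data known. The genes most like Yap1 and Lats2 are not reported here.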

Additional observations from a re-analysis of the deposited data

How the results depend on the processing

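Bulk results were recomputed with RLE size factors, DESeq2, no filter or a stricter filter on low counts (which left the same 14185 genes), the 6 libraries compared, the replicate number as a block, and without each library in turn. No log2 difference of the 10 genes changed sign under these 16 alternatives. Between DP and Pdgfra+ the count of 1 called gene of 10 became 2 with DESeq2, 2 in the 6 libraries and 3 with no filter. It became 2 with the replicate block in 9 libraries and 4 with it in 6, and 0 to 2 without 1 library. In the same order 13.2%, 6.85%, 6.70%, 8.21%, 20.2% and 0.412% to 9.30% of all genes were called, beside 6.87% in the main fit. The count was 0 without Pdgfra+ replicate 3 or DP replicate 3, where 0.412% and 0.896% of all genes were called. The 5 calls of the pathway list became 10, 6, 14, 7 and 22 in the same order, and 0 to 10 without 1 library. With a minimum log2 difference of 1.5, 22 of the list were called in each Oct4+ comparison (37 against DP and 44 against Pdgfra+ without it), and 6 of the 10 genes against Pdgfra+. At that minimum 27.7% of all genes were called against DP and 32.0% against Pdgfra+. The replicate block changed no call against DP, and against Pdgfra+ it changed that of Yap1 alone (adjusted p = 0.057 and 0.161). Without 1 library 7 to 8 and 9 to 10 of the 10 genes were called in these comparisons, and 33 to 37 and 40 to 45 of the list. The shares of all genes in these fits were 48.2% to 55.1% against DP and 56.2% to 63.3% against Pdgfra+.

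Of the 10 genes, 5 were past 1.5-fold between the endoderm-like cells of the 2 libraries. The count was 1 within cluster 0, 0 within cluster 5, 1 within cluster 6, 1 within cluster 10, 5 within cluster 11 and 2 without cluster 9, sets that were chosen after seeing the data. Of the 5 genes past it in the whole class, ratios crossed 1 for Amot (1.14 in cluster 0, 1.26 in cluster 10 and 1.07 without cluster 9, all under 20 CPM), Tead1 (0.957 in cluster 5 and 0.995 in cluster 10), Ccn1 (0.770 in cluster 0, 0.962 in cluster 5 and 0.954 in cluster 10) and Ccn2 (0.731 in cluster 0). Of the other 5 in the same sets, Amotl2 crossed 1 in cluster 10 (0.958), Wwtr1 in clusters 6 (0.912) and 11 (0.972), and Tead4 in clusters 5 (1.14), 6 (1.01), 10 (1.38) and 11 (2.16) and without cluster 9 (1.18). The cause was not tested. With cells thinned to 5000 UMIs the ratio was 3.23 for Ccn2, 2.28 for Ccn1, 1.56 for Yap1 and 1.44 for Tead1, so that Yap1 passed 1.5-fold and Tead1 did not. With 3 libraries per sort and 1 per 4OHT condition, small differences such as that of Yap1 were not resolved.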
